A study of Mus musculus with 127 samples.

Results

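Short-term haematopoietic stem cells (ST) were compared with multipotent progenitors (MPP) sorted from the bone marrow of the same animal, before any culture. All 0 h libraries of both populations were taken, whatever treatment their label carries, from 4 young mice (1, 2, 3 and 4) and 2 old mice (2 and 4). They number 18 of the 127 libraries of the series, and summing technical repeats gave 12 libraries, 1 ST and 1 MPP library for each of 6 mice. None held fewer than 1000 counts. Young mice 1 and 2 with old mouse 2 carry LPS+PAM as treatment label, while young mice 3 and 4 with old mouse 4 carry None. All are read here as a single unexposed baseline. The label does not follow the later culture, since young mouse 3 carries None at 0 h and LPS+PAM at every later time. No strain, genotype, sex or age in months is given. The labels say only that cells were identified by surface markers, so which antigens defined each gate is not known, and the mice are few: the old group is 2 animals. RNA was made into cDNA by SMART-seq2, a full-length method for small inputs of polyadenylated RNA. Levels are in CPM, counts scaled to the size of the library after TMM scaling, and differences are log2 of ST over MPP, fitted within mouse by edgeR's quasi-likelihood test with Benjamini-Hochberg adjustment at 0.05.

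Blood formation runs from long-term stem cells (LT), which rarely divide and can rebuild all lineages for life, through ST, which rebuild them for a limited time, to MPP, which divide more often and no longer self-renew for long. Along this path cells switch off stem cell receptors such as Procr, gain the cytokine receptor Flt3, and begin to transcribe lymphoid or myeloid genes at a low level. Entry into the cell cycle brings transcription of DNA replication genes under E2F factors and of nucleolar genes under Myc.

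The libraries held 2148452 to 10706984 counts in ST and 2309621 to 11636725 counts in MPP. ST libraries contained fewer detected genes than the MPP library of the same animal in 6 of 6 mice. In ST 10599, 12510, 12564, 11347, 12407 and 10964 genes had a count in young mice 1, 2, 3 and 4 and old mice 2 and 4, and in MPP of the same mice 13407, 13253, 13281, 11912, 14096 and 11750. The mean difference was -1218 ± 876 genes (SD, n = 6 pairs; exact sign-flip permutation test, 2-sided, p = 0.03125, the smallest that 6 pairs allow). It was -1226 after the deeper library of each pair was thinned to the depth of the other. Leaving out any 1 mouse gave p = 0.0625, the smallest that 5 pairs allow in this exact test. Technical repeats agreed less in ST than in MPP: across genes, the log2 values of the 2 repeats correlated at r = 0.76, 0.91 and 0.87 in ST of young mouse 1, young mouse 2 and old mouse 2, against 0.95, 0.97 and 0.98 in MPP (a description; the genes share the library). Genes seen in only 1 of 2 repeats made up 34.2%, 18.3% and 19.2% of those detected in ST, against 14.4%, 13.2% and 11.8% in MPP. Cell numbers per library are not given, and whether input RNA accounts for the lower number was not tested. In such bulk samples, fewer cells that express a gene and less RNA per cell cannot be told apart.

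**Figure D1:**
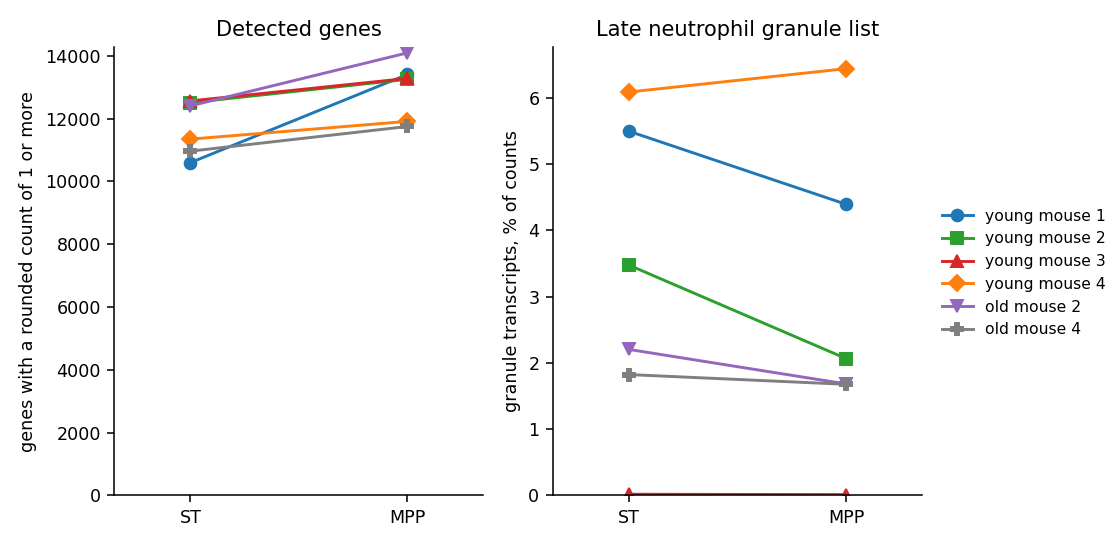
Left, genes with a rounded count of 1 or more; right, the summed share of 6 neutrophil granule transcripts in percent of counts, each in ST (left position) and MPP (right position), with 1 line per mouse. Detected genes were fewer in ST in 6 of 6 mice, and the granule share of young mouse 3 lay near 0 in both populations.

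Both populations of young mouse 3 stood apart from those of other animals. Transcripts of 6 neutrophil granule proteins (S100a8, S100a9, Ngp, Camp, Ltf and Lcn2) took 0.0158% of counts in ST and 0.00988% in MPP of young mouse 3, against 1.82 to 6.09% in ST and 1.68 to 6.44% in MPP of the other 5 mice. Young mouse 4 had the highest granule share of each population, 6.09% in ST and 6.44% in MPP, followed by young mouse 1 with 5.50% and 4.40%. Kit, the stem cell factor receptor, had 170 CPM in ST and 160 CPM in MPP of young mouse 4, the lowest value of each population. Column names carry the same date or batch tag for ST and MPP of each mouse, and young mouse 4 and old mouse 4 share one tag, so the mouse term of the fit also holds that tag. Because 3 of the 6 mice carry each label, values within each set of 3 are given beside the main lists.

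No gene passed the test. Of 10968 genes tested, 0 were higher and 0 lower in ST at an adjusted p under 0.05 by edgeR (0.0% each way), with 737 genes at an unadjusted p under 0.05, of which 272 were higher in ST (2.48%) and 465 lower (4.24%). Another 2 tools made calls on the same counts. With limma voom 10 genes were higher (0.0912%) and 9 lower (0.0821%), and with DESeq2 42 were higher (0.383%) and 56 lower (0.511%). The genes higher in ST by limma voom included Txnip, Ltb, Pik3ip1, Ltf, Gata2, Trpc6, Procr, Slc2a3 and Tgm2. The 9 lower in ST were Flt3, H2afy, Igfbp4, Cd34, Ran, Ppia, Stmn1, Hspa8 and Dntt. H2afy, Igfbp4, Ran, Ppia, Hspa8 and Tgm2 are named because their values were seen. Over all genes 250 were higher in ST in 6 of 6 mice (2.28%) and 435 lower in 6 of 6 (3.97%), and the fitted difference was above 0 for 4352 (39.7%) and below 0 for 6616 (60.3%), with a median of -0.11. In 36 genes (0.328%) the 6 ST and 6 MPP values did not overlap. Unadjusted counts below are read against these percentages.

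**Figure D2:**
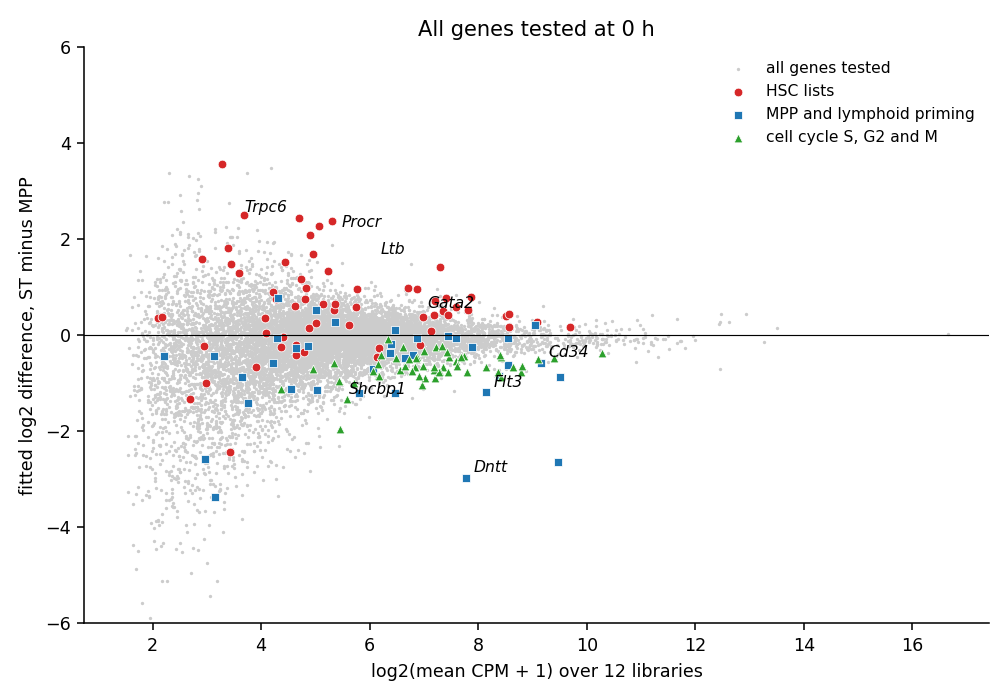
Fitted log2 difference, ST minus MPP, of each gene tested (vertical) against log2 of its mean CPM + 1 over 12 libraries (horizontal); 2 genes lie outside the drawn range. Members of the HSC lists mostly lie above 0, those of the MPP and lymphoid list mostly below, and all 54 cell cycle genes below.

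Flt3, the receptor tyrosine kinase that marks the step from stem cell to MPP, had the lowest p of all genes, and was lower in ST in 6 of 6 mice. It had 153, 235, 437, 20.3, 146 and 86.4 CPM in ST of young mice 1, 2, 3 and 4 and old mice 2 and 4, against 353, 448, 933, 76.5, 329 and 164 CPM in MPP. The groups overlap because animals differ widely, while every pair points the same way. The log2 difference was -1.19 ± 0.14 (SE), the edgeR adjusted p was 0.133, and it ranged from -1.27 to -1.07 when 1 mouse was left out. Without the filter on low counts Flt3 was the 1 gene that passed in edgeR. Flt3 and Cd34 are among the antigens often used to separate these populations, so their difference is taken as a check of the labels and not as a finding. Cd34, a surface sialomucin of progenitors, had 307, 594, 891, 181, 558 and 171 CPM in ST against 601, 887, 1355, 171, 842 and 284 CPM in MPP, in the same mouse order. It was lower in ST in 5 of 6 mice, with young mouse 4 near equal (-0.57 ± 0.13, edgeR adjusted p = 0.629). Cd48, an adhesion receptor gained by MPP, averaged 61.4 ± 35.1 CPM in ST and 113 ± 15.3 CPM in MPP (SD, n = 6 each). It was lower in ST in 6 of 6 mice, did not pass (edgeR adjusted p = 0.729), and was at 3.14 CPM in ST of young mouse 3. Kit averaged 604 ± 417 CPM in ST and 477 ± 264 CPM in MPP, and Ly6a, which encodes Sca-1, 137 ± 15.9 CPM in ST and 112 ± 47.8 CPM in MPP (SD, n = 6 each). Both were higher in ST in 5 of 6 mice and neither passed (edgeR adjusted p = 0.758 and 0.776). Slamf1, which encodes CD150, was below the filter, with 0 CPM in 5 of 6 ST libraries.

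On a common scale of 18 libraries that includes the 6 LT libraries, Flt3 averaged 48.8 ± 45.2 CPM in LT, 182 ± 152 CPM in ST and 386 ± 312 CPM in MPP (SD, n = 6 each). Cd34 averaged 139 ± 84.7 CPM in LT, 454 ± 294 CPM in ST and 691 ± 449 CPM in MPP. Procr ran the other way: it averaged 59.9 ± 81.6 CPM in LT, 64.03 ± 62.3 CPM in ST and 13.8 ± 11.2 CPM in MPP, so that LT and ST lay within each other's spread. These LT values are a description and were not tested here.

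Genes of the stem cell program lay higher in ST. Of 42 listed surface and other HSC genes, 38 were tested: 14 had an unadjusted p under 0.05 and a higher level in ST, 0 a lower one, and the median log2 difference was 0.62, against -0.11 over all genes. The median was above 0 in each of the 6 mice, with 0.04 in young mouse 4 as the lowest and 1.18 in young mouse 3 as the highest. It was 0.58 in the 3 mice labelled LPS+PAM and 0.59 in the 3 labelled None, with 9 and 8 genes at an unadjusted p under 0.05. Without young mouse 3 that count was 9 and the median 0.57. None of the 38 passed in edgeR, and 4 did with limma voom. The list includes genes of surface antigens, among them Procr, Kit and Ly6a. Whether any was gated on is not known, and no count without them was made.

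Procr, the endothelial protein C receptor and a marker of stem cells with long-term activity, had 32.6, 77.3, 157, 4.41, 102 and 5.80 CPM in ST of young mice 1, 2, 3 and 4 and old mice 2 and 4. In MPP it had 16.4, 19.5, 24.7, 0, 22.4 and 0 CPM in the same order. It was higher in ST in 6 of 6 mice, and the 2 MPP libraries at 0 belong to the 2 mice with the lowest ST values (2.37 ± 0.52, edgeR adjusted p = 0.629; 1.72 in mice labelled LPS+PAM and 3.53 in those labelled None). Trpc6, a calcium-permeable cation channel, had 80.8, 28.7, 54.7, 4.41, 80.5 and 5.80 CPM in ST, against 9.12, 11.7, 9.32, 0, 11.9 and 2.64 CPM in MPP (2.45 ± 0.53, edgeR adjusted p = 0.629). It was higher in ST in 6 of 6 mice. Angpt1, the secreted ligand of the receptor Tie2, averaged 213 ± 159 CPM in ST and 126 ± 87.8 CPM in MPP (SD, n = 6 each), and was higher in ST in 6 of 6 mice, by 0.79 ± 0.16 (edgeR adjusted p = 0.629). Angpt1 was picked for a low p and 1 sign in 6 of 6 mice, so that sign count is not a result. Esam, an endothelial adhesion molecule also carried by stem cells, had 4.85 to 87.0 CPM in ST and 0.41 to 27.8 CPM in MPP, and was higher in ST in 6 of 6 mice. Tgm2, a transglutaminase, was higher in ST in 5 of 6 mice (2.28 ± 0.67).

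**Figure D3:**
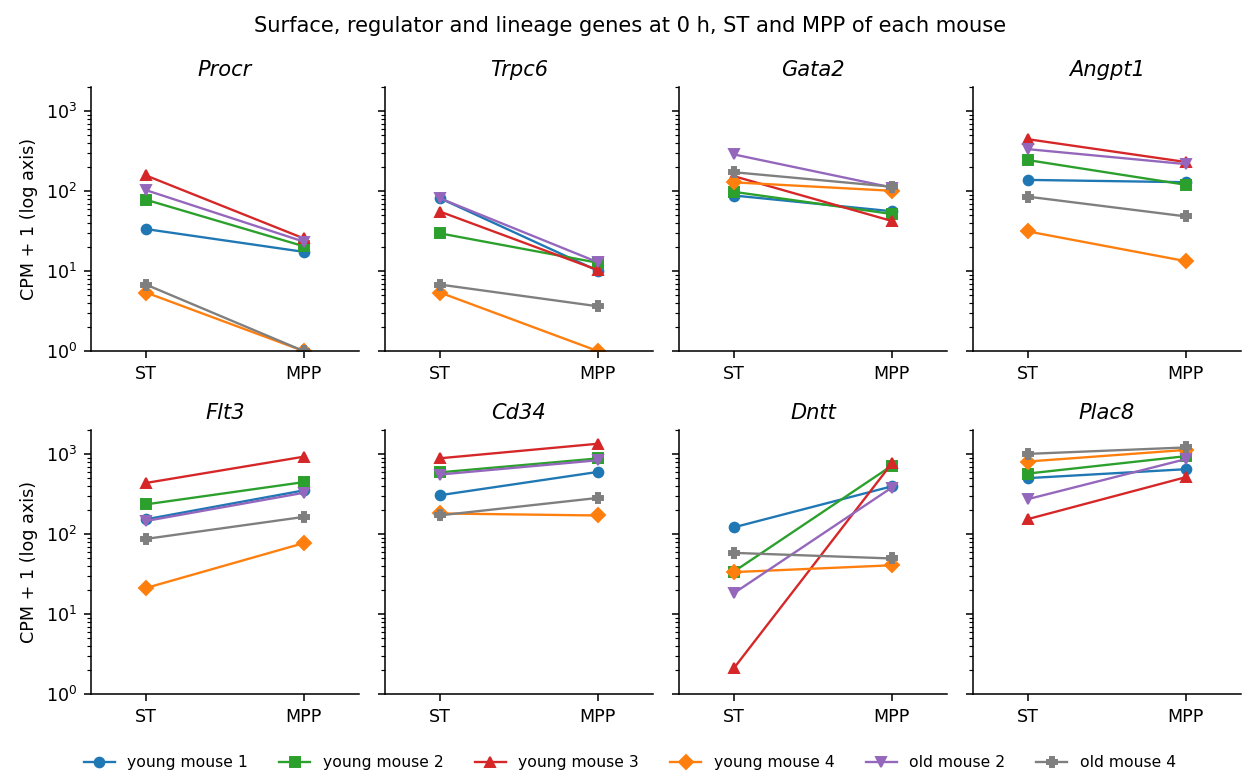
CPM + 1 on a log axis in ST (left) and MPP (right) of each mouse at 0 h, with 1 line per mouse, for 4 genes of the HSC lists (top) and 4 of the MPP and lymphoid list (bottom). Procr, Gata2 and Angpt1 were higher in ST in 6 of 6 mice, as was Trpc6; Flt3 and Plac8 were lower in ST in 6 of 6, and Cd34 and Dntt in 5 of 6.

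Transcription factors of stem cells leaned the same way. Of 26 tested, 7 had an unadjusted p under 0.05 and a higher level in ST (Gata2, Meis1, Hlf, Lmo2, Tsc22d1, Gfi1b and Ndn), and 0 a lower one, with a median log2 difference of 0.35. Medians by mouse lay between -0.09 (old mouse 4) and 0.62 (young mouse 3), and without young mouse 3 the counts were 5 and 1 and the median 0.18. Without old mouse 2 the count of higher genes was 4. The median was 0.31 in the mice labelled LPS+PAM, with 4 genes at an unadjusted p under 0.05, and 0.44 in those labelled None, with 2, all higher in ST. Gata2, a zinc finger factor needed for stem cell survival, had 87.5, 97.3, 153, 128, 288 and 172 CPM in ST, against 55.2, 50.9, 41.5, 100, 110 and 113 CPM in MPP. It was higher in ST in 6 of 6 mice (0.97 ± 0.21, edgeR adjusted p = 0.629), by 0.99 in mice labelled LPS+PAM and 0.94 in those labelled None. Hlf, a leucine zipper factor of stem cells, averaged 141 ± 150 CPM in ST and 66.6 ± 55.7 CPM in MPP (SD, n = 6 each). It was higher in ST in 5 of 6 mice and lower in young mouse 1 (edgeR adjusted p = 0.658). Meis1, a homeobox cofactor of Hox proteins, averaged 183 ± 143 CPM in ST and 109 ± 71.5 CPM in MPP, with ST higher in 5 of 6 mice. Mecom and Mllt3, both regulators of self-renewal, were higher in ST in 4 of 6 mice each (1.00 ± 0.54 and 0.62 ± 0.95), an error that for Mllt3 exceeds the difference.

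Genes of MPP and of lymphoid priming lay lower in ST. Of 36 tested, 11 had an unadjusted p under 0.05 and a lower level in ST and 0 a higher one, with a median log2 difference of -0.45 and 31 of 36 below 0. The list includes Flt3, Cd34 and Cd48, which may have been gated on. No count without them was made, here or in culture. The median was below 0 in each mouse, lowest in young mouse 3 (-0.85) and highest in young mouse 4 (-0.12), and was -0.46 in the mice labelled LPS+PAM and -0.38 in those labelled None. At an unadjusted p under 0.05 the first 3 mice gave 10 genes lower and 0 higher, and the other 3 gave 2 lower and 1 higher. The count of lower genes was 5 without old mouse 2 and 7 without young mouse 2 or without young mouse 3. Dntt, the template-free DNA polymerase of early lymphoid cells, had 121, 33.2, 1.12, 32.6, 17.4 and 57.5 CPM in ST of young mice 1, 2, 3 and 4 and old mice 2 and 4. In MPP it had 397, 720, 770, 39.9, 383 and 48.7 CPM. The difference was large in 4 mice and small in young mouse 4 and old mouse 4, where MPP levels were low, and ST was higher in old mouse 4 (-2.97 ± 1.11, edgeR adjusted p = 0.693). Satb1, a chromatin organiser of lymphoid progenitors, had 4.39 to 48.0 CPM in ST and 7.47 to 79.2 CPM in MPP. ST was lower in 4 of 6 mice, again not in young mouse 4 or old mouse 4 (edgeR adjusted p = 0.758). Plac8, a small cysteine-rich protein of primed progenitors, had 503, 574, 154, 812, 274 and 1012 CPM in ST, against 651, 948, 517, 1135, 871 and 1219 CPM in MPP, and was lower in ST in 6 of 6 mice (-0.87 ± 0.22, edgeR adjusted p = 0.629). Notch1, the receptor that directs T cell fate, and Il7r, the interleukin 7 receptor chain, were lower in ST in 6 of 6 mice as well (edgeR adjusted p = 0.696 and 0.809). Emb, an adhesion glycoprotein, was lower in ST in 5 of 6 (edgeR adjusted p = 0.629).

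DNA replication and mitosis genes lay lower in ST by fitted value, but most did not do so in every mouse. Of 54 genes in the S, G2 and M list, 7 were lower in ST in 6 of 6 mice, where 3.97% of all genes were. All 54 genes of the S, G2 and M list had a fitted difference below 0, where 60.3% of all genes did; 16 had an unadjusted p under 0.05, each lower in ST, and the median was -0.65. Young mouse 3 weighs heavily on that size: its median was -2.34, against -0.07 to -0.81 in the other 5 mice. Without it 47 of 54 genes were below 0, 14 had an unadjusted p under 0.05 and the median was -0.33. The count was 29 without young mouse 1. The median was -0.47 in the mice labelled LPS+PAM, with 17 genes at an unadjusted p under 0.05, and -0.70 in those labelled None, with 3. In young mouse 3 the list summed to 3056 CPM in ST, the lowest of the 6 ST libraries, which otherwise reached 13436 CPM, while MPP libraries lay between 10313 and 13666 CPM.

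The 4 members of the list with the lowest p were Dut, Mcm5, Gins2 and Stmn1. Dut, the dUTPase that keeps uracil out of DNA, had 121, 147, 59.8, 105, 99.9 and 167 CPM in ST of young mice 1, 2, 3 and 4 and old mice 2 and 4, against 179, 222, 167, 170, 199 and 208 CPM in MPP. The groups do not overlap (-0.77 ± 0.17, edgeR adjusted p = 0.629). Mcm5, a subunit of the replicative helicase, had 296, 243, 134, 344, 93.6 and 448 CPM in ST, against 372, 378, 428, 433, 357 and 553 CPM in MPP. It was lower in ST in 6 of 6 mice, as was its relative Mcm7 (-0.86 ± 0.24 and -0.63 ± 0.19, edgeR adjusted p = 0.629 for both). Gins2, a helicase cofactor, averaged 30.0 ± 16.5 CPM in ST and 54.1 ± 13.2 CPM in MPP (SD, n = 6 each), and Cdk2, a kinase of S phase entry from the list of G1 regulators, 97.9 ± 28.8 CPM in ST and 139 ± 22.0 CPM in MPP, both with ST lower in 6 of 6 mice. Stmn1, which destabilises microtubules, was lower in ST in 5 of 6 mice (-0.77 ± 0.21). Mki67, the proliferation antigen, was less regular. It had 172, 134, 24.6, 273, 138 and 497 CPM in ST, against 209, 163, 185, 233, 159 and 372 CPM in MPP, with ST lower in 4 of 6 mice and higher in young mouse 4 and old mouse 4 (-0.42 ± 0.37, edgeR adjusted p = 0.856). Of 21 regulators of G1 tested, 1 was higher and 1 lower in ST at an unadjusted p under 0.05, the lower one being Cdk2, with a median of -0.07. Cdk6, a kinase of G1, was lower in ST in 4 of 6 mice and Ccnd2, cyclin D2, higher in 4 of 6 (edgeR adjusted p = 0.815 and 0.822). Cdkn1c, the inhibitor p57 of resting stem cells, was below the filter, with 0 to 5.00 CPM in ST and 0 to 2.47 CPM in MPP.

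Replication genes are known targets of E2F factors, so the list's promoters were searched for the E2F consensus in the 250 bases before each gene start (RefSeq, GRCm38.p6). The words were TTTCGCGC, TTTGGCGC, TTTCCCGC and TTTGCCGC on both strands. A word was present in 6 of 43 list genes with a promoter entry (13.95%), in 4 of 24 genes of the ribosome biogenesis list (16.7%), in 341 of 8274 tested genes with an entry (4.12%) and in 583 of 27025 genes in all (2.16%). The share was thus no lower in the ribosome list than in the replication list. The 6 windows of the replication list are shown because they carry the words, in capitals, read 5′ to 3′ on the gene's strand; overlapping words run together.
Cdk1: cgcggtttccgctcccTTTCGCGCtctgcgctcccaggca
Mcm5: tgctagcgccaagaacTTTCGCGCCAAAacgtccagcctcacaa
Mcm6: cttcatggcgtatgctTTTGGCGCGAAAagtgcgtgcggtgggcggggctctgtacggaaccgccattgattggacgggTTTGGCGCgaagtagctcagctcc
Mcm7: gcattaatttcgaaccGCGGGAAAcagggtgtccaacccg
Cdc6: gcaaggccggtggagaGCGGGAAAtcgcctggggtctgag
Uhrf1: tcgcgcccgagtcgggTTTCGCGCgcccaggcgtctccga

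These windows lie at chr10:69353020-69353059 on the minus strand (Cdk1, the mitotic kinase), chr8:75109340-75109383 on the plus strand (Mcm5) and chr1:128359729-128359831 on the minus strand (Mcm6). The others lie at chr5:138172025-138172064 on the minus strand (Mcm7), chr11:98907997-98908036 on the plus strand (Cdc6, which loads the helicase) and chr17:56304112-56304151 on the plus strand (Uhrf1, which binds hemimethylated DNA). All 6 had a fitted difference below 0, from -0.86 for Mcm5 to -0.45 for Uhrf1, as all list members did. A word in a window is a description of its letters, not a bound site.

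Genes of ribosome assembly followed the same direction with a small, even difference. Of 29 tested, 7 had an unadjusted p under 0.05 (Nop56, Ncl, Nolc1, Npm1, Nop2, Wdr12 and Rrp12), each lower in ST, 27 were below 0, and the median was -0.37. It lay below 0 in each mouse, from -0.51 to -0.06. It was -0.44 in the mice labelled LPS+PAM, with 6 genes lower at an unadjusted p under 0.05, and -0.25 in those labelled None, with 3. Nop56, a core protein of the particles that methylate ribosomal RNA, had 181, 246, 195, 130, 155 and 124 CPM in ST, against 246, 358, 279, 159, 264 and 223 CPM in MPP. It was lower in ST in 6 of 6 mice (-0.57 ± 0.12, edgeR adjusted p = 0.629). Ncl, nucleolin, averaged 670 ± 102 CPM in ST and 875 ± 158 CPM in MPP, and Npm1, nucleophosmin, 1091 ± 234 CPM in ST and 1413 ± 205 CPM in MPP (SD, n = 6 each), both with ST lower in 6 of 6 mice (-0.38 ± 0.09 and -0.39 ± 0.11). Myc, the factor that drives these genes, had 235, 442, 368, 200, 484 and 274 CPM in ST, against 412, 621, 638, 223, 582 and 273 CPM in MPP. ST was lower in 5 of 6 mice and equal within 2 CPM in old mouse 4 (-0.42 ± 0.13, edgeR adjusted p = 0.658). Mxd1, which competes with Myc for its partner Max, was higher in ST in 6 of 6 mice: it had 607, 230, 56.7, 886, 211 and 179 CPM in ST, against 388, 145, 30.1, 701, 169 and 120 CPM in MPP (0.57 ± 0.11, edgeR adjusted p = 0.629). Nop56 and Mxd1 were picked for a low p and 1 sign in 6 of 6 mice, so their sign counts are not a result. The list of 10 Myc family and Mxd genes did not lean either way. At an unadjusted p under 0.05, 1 was higher and 1 lower in ST. Fitted differences were above 0 for 4 and below 0 for 6, with a median of -0.03. By mouse the median was above 0 in 3 and below 0 in 3.

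**Figure D4:**
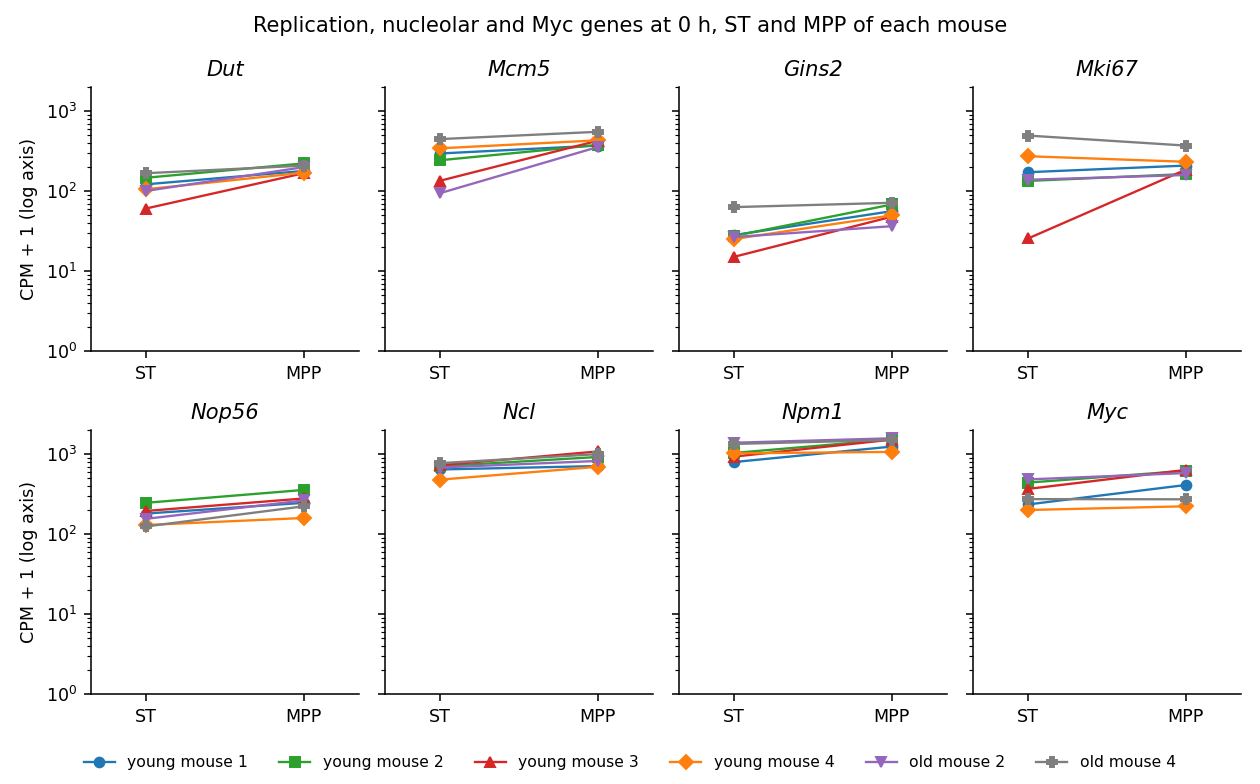
CPM + 1 on a log axis in ST (left) and MPP (right) of each mouse at 0 h for 4 cell cycle genes (top) and for Nop56, Ncl, Npm1 and Myc (bottom). Dut, Mcm5, Gins2, Nop56, Ncl and Npm1 were lower in ST in 6 of 6 mice, Myc in 5 and Mki67 in 4.

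Other genes were named for a low p and a single direction, and share no common list. Txnip is also the 1 G1 regulator counted above as higher in ST. Paics, an enzyme of purine synthesis, averaged 280 ± 54.4 CPM in ST and 413 ± 106 CPM in MPP (-0.54 ± 0.11). Ipo9, a nuclear import receptor, averaged 52.5 ± 17.2 CPM in ST and 95.2 ± 28.8 CPM in MPP (-0.86 ± 0.16). Shcbp1, a protein of dividing cells that binds the adaptor Shc, had 14.8 to 35.3 CPM in ST and 45.2 to 103 CPM in MPP (-1.35 ± 0.26), and Glt25d1, a collagen galactosyltransferase, had 49.3 to 82.6 CPM in ST and 104 to 137 CPM in MPP (-0.78 ± 0.16). Neither gene's groups overlap. On the higher side stood Txnip, which binds thioredoxin and restrains glucose uptake. It had 149, 184, 368, 117, 303 and 97.1 CPM in ST, against 91.2, 108, 175, 85.1, 117 and 70.3 CPM in MPP (0.82 ± 0.15). Pik3ip1, a membrane inhibitor of PI3 kinase, averaged 130 ± 57.1 CPM in ST and 67.9 ± 31.98 CPM in MPP (0.93 ± 0.18), and Nceh1, a cholesterol ester hydrolase, 131 ± 65.3 CPM in ST and 69.7 ± 25.2 CPM in MPP (0.86 ± 0.17). Ltb, a membrane cytokine of the TNF family, had 83.6, 223, 260, 104, 216 and 75.3 CPM in ST, against 64.5, 53.4, 71.5, 71.97, 54.4 and 17.6 CPM in MPP, with no overlap (1.49 ± 0.28). Each of these 8 genes differed in 1 direction in 6 of 6 mice, and each had an edgeR adjusted p of 0.629 (n = 6 mice).

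The glycolysis list did not lean either way. Of 21 genes tested, 3 had an unadjusted p under 0.05 and a higher level in ST and 2 a lower one, with a median of -0.06. Slc2a3, a glucose transporter, was higher in ST in 5 of 6 mice (0.83 ± 0.24), Aldoa, aldolase A, was higher in 6 of 6 (0.34 ± 0.10), and Pgk1, phosphoglycerate kinase, was lower in 5 of 6 (-0.25 ± 0.11). For the mitochondrial respiratory chain 5 of 44 genes had an unadjusted p under 0.05, each lower in ST, and the median was -0.18; the count was 2 without young mouse 3 and 2 without old mouse 2. Ndufa4, a subunit of the respiratory chain, was lower in ST in 6 of 6 mice (-0.53 ± 0.13), as was Atp5d, a subunit of ATP synthase (-0.30 ± 0.12), and Cycs, cytochrome c, in 5 of 6 (-0.41 ± 0.15). None passed in edgeR (n = 6 mice).

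Early granule enzymes varied between animals without a common direction: Mpo, myeloperoxidase, had 6061, 3505, 77.3, 8721, 2200 and 11111 CPM in ST, against 5171, 3653, 1325, 10484, 4466 and 10808 CPM in MPP. ST was lower in 4 of 6 mice (-0.70 ± 0.49, edgeR adjusted p = 0.821). Elane, neutrophil elastase, was lower in 3 and higher in 3 mice, with its fitted -0.26 turning to 0.04 without young mouse 3. Among 31 genes of granulocyte and monocyte priming 4 had an unadjusted p under 0.05, each higher in ST (Csf2ra, Lyz1, Cebpe and Lyz2), and the median was -0.09. It was -1.52 in young mouse 3, and 0.057 when that mouse was left out, 0.053 with limma voom and 0.037 without the mouse block. Without young mouse 1 or young mouse 2 the count was 1 higher and 1 lower. The median was 0.13 in the mice labelled LPS+PAM and -0.48 in those labelled None, so that the direction differs between the 2 sets.

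Late granule genes leaned higher in ST in most mice. The list's median was above 0 in 4 of 6 mice and below it in young mice 3 and 4 (-0.30 and -0.03). Of 15 tested, 7 had an unadjusted p under 0.05, each higher in ST, with a median of 0.23. Without young mouse 2 the count was 2 and the median 0.12; it was 4 without old mouse 2 and 3 with the first technical repeat alone. How this list differs from the priming list was not tested. Ltf, lactoferrin, had 11589, 4347, 23.7, 14870, 3129 and 3771 CPM in ST, against 7643, 2932, 17.2, 15450, 2034 and 2763 CPM in MPP. ST was higher in 5 of 6 mice and slightly lower in young mouse 4 (0.44 ± 0.09, edgeR adjusted p = 0.629). Ngp, neutrophilic granule protein, and S100a9, a calcium-binding protein of neutrophils, followed the same 5 mice (0.44 ± 0.14 and 0.27 ± 0.11). As a share of counts, the 6 granule transcripts differed by a mean log2 of 0.36 ± 0.32 (SD, n = 6 pairs; exact sign-flip permutation test, 2-sided, p = 0.0625, where 0.03125 is the smallest possible). The list's median was 0.36 in the mice labelled LPS+PAM, with 7 genes at an unadjusted p under 0.05, and -0.0041 in those labelled None, with 0. Whether mature granulocytes or their RNA entered the sorted samples was not tested.

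Few platelet and red cell genes had an unadjusted p under 0.05. Of 15 megakaryocyte genes 2 were higher and 1 lower in ST at an unadjusted p under 0.05, and the median was -0.23, with mice between -0.92 and 0.95, and 0.35 without young mouse 1. Plek, pleckstrin, was lower in ST in 5 of 6 mice, and Nfe2, a factor of platelet formation, higher in 5 of 6. Itga2b, the platelet integrin CD41, was lower in 5 of 6 (edgeR adjusted p = 0.821). Vwf had at most 13.04 CPM in ST and 24.2 CPM in MPP, and Pf4 and Gata1 were split between mice. Of 19 erythroid genes 1 had an unadjusted p under 0.05: Car2, carbonic anhydrase 2, had 532, 902, 890, 402, 777 and 760 CPM in ST, against 508, 534, 448, 341, 336 and 566 CPM in MPP, and was higher in ST in 6 of 6 mice (0.62 ± 0.16, edgeR adjusted p = 0.629). The erythroid list still leaned higher in ST, with a median of 0.44 and 14 of 19 genes above 0. By mouse its median was above 0 in 5 of 6 and below 0 in young mouse 1. Over all settings it lay between 0.13 and 0.66. The stem cell transcription factors had a median of 0.35, so a lean toward ST was not limited to the stem cell lists.

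The medians of the lists for sensing and early response changed sign when 1 mouse was left out or libraries were subset. In the list of Toll-like receptor (TLR) and NF-kB genes 2 of 25 had an unadjusted p under 0.05, both higher in ST in 6 of 6 mice: Irak4, the kinase of the receptor complex (0.73 ± 0.24), and Rela, the p65 subunit of NF-kB (0.44 ± 0.16; edgeR adjusted p = 0.658 and 0.689). The list's median was 0.20, but -0.013 without young mouse 2 and -0.029 without old mouse 4. The receptors gave no stable direction. Tlr2 had 0.10 to 117 CPM in ST and 14.9 to 77.3 CPM in MPP, and Tlr4 1.73 to 56.4 CPM in ST and 13.98 to 32.2 CPM in MPP, and the sign of both fitted differences turned under some settings. None of 15 immediate early genes had an unadjusted p under 0.05 in edgeR, 0 passed there or by limma voom, and 12 were above 0, with a median of 0.37. With the first technical repeat alone 6 were above and 9 below 0, with a median of -0.025. Interferon-stimulated genes gave 2 higher and 1 lower of 38, with a median of 0.09 that was -0.14 with the first repeat alone and -0.034 in the mice labelled LPS+PAM. MHC class II genes had a median of 0.16, which was -0.16 in young mice alone and -0.060 without old mouse 4. They gave 0 higher and 1 lower of 10, the lower one being H2-Ob, a chain of the peptide-loading modulator DO. Its level was 7.92 to 62.5 CPM in ST and 6.17 to 198 CPM in MPP, and ST was lower in 5 of 6 mice. Among 24 homing and adhesion genes S1pr1, the sphingosine 1-phosphate receptor that guides cells into blood, had 39.8, 47.9, 30.7, 20.7, 19.6 and 48.3 CPM in ST, against 17.4, 14.7, 13.98, 11.9, 11.8 and 14.1 CPM in MPP. The groups do not overlap (1.22 ± 0.34, edgeR adjusted p = 0.629).

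Markers of other cells were tested as a check of the sorted samples. Summed CPM of the B cell list were 51.3 to 398 in ST and 48.9 to 393 in MPP, of the T and NK list 45.9 to 136 in ST and 81.0 to 193 in MPP, of the macrophage and dendritic list 35.8 to 584 in ST and 72.8 to 447 in MPP, and of the mast cell and basophil list 0.90 to 1693 in ST and 96.7 to 1640 in MPP. At an unadjusted p under 0.05, 0 genes were higher and 3 lower in ST over these 4 lists and the stromal one, of 37 tested. The stromal and endothelial list summed to 2.41 to 32.3 CPM in ST and 24.2 to 422 CPM in MPP, the widest gap being 12.1 CPM in ST against 422 CPM in MPP of young mouse 1, and their part in the results was not tested. Only 2 of its 12 genes in the table passed the filter; Pdgfrb, a growth factor receptor of stromal cells, was lower in ST in 6 of 6 mice, with 0 to 24.2 CPM in ST and 20.6 to 54.5 CPM in MPP.

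**Figure D5:**
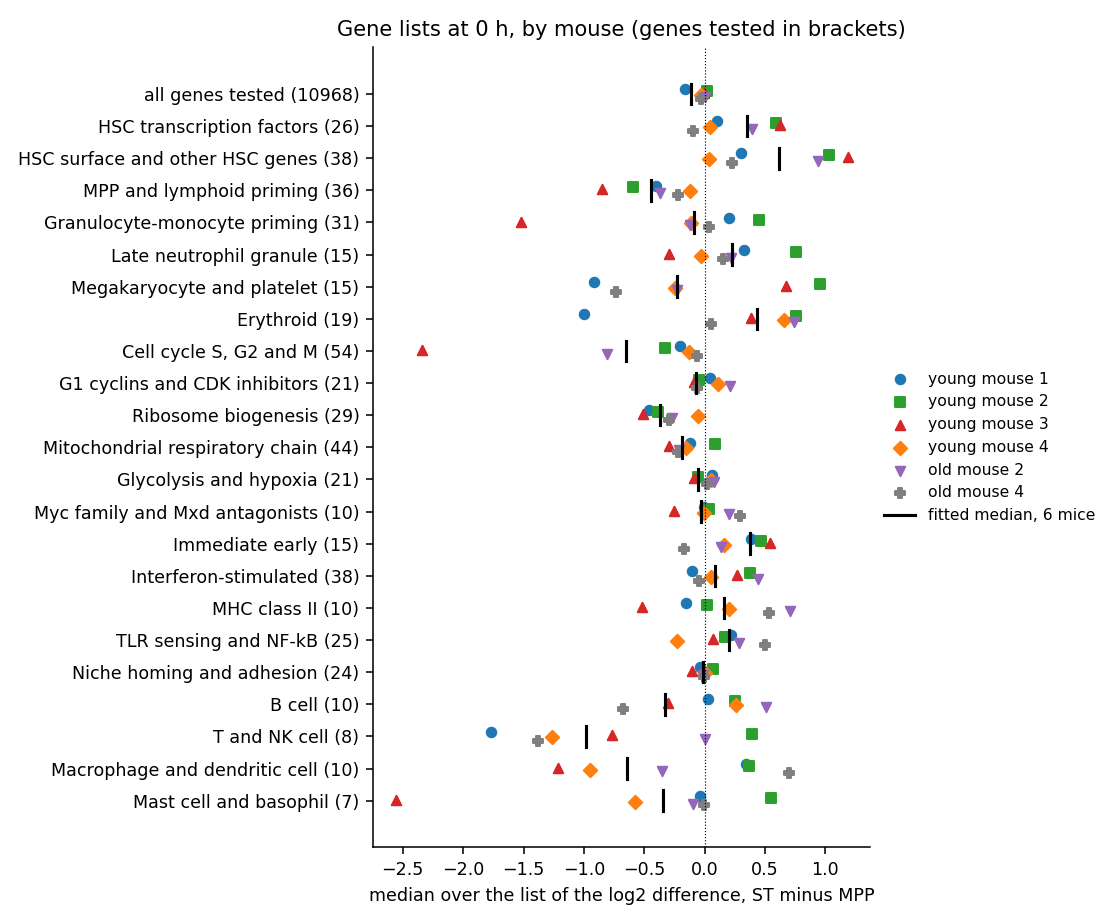
Median log2 difference, ST minus MPP, of each gene list with 7 or more genes tested, with 1 symbol per mouse and a bar at the median of the fitted values. The HSC surface list lies above 0 and the MPP and lymphoid, cell cycle and ribosome biogenesis lists below 0 in each of the 6 mice, with young mouse 3 far from the others in the cell cycle list.

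The same comparison was made in cultured cells of these animals, in libraries not used above. For each mouse all libraries from 0.5 h on were summed over the times at which both populations were present, giving 12 libraries from 62 deposited ones. Young mice 1, 2 and 3 and old mouse 2 were cultured with LPS, a ligand of Tlr4, and Pam3csk4, a ligand of Tlr2, and young mouse 4 and old mouse 4 without ligand. Of 12504 genes tested in edgeR, 0 were higher (0.0%) and 0 lower (0.0%) in ST at an adjusted p under 0.05, with 810 at an unadjusted p under 0.05, 406 higher (3.25%) and 404 lower (3.23%). With limma voom 92 were higher (0.736%) and 32 lower (0.256%), and with DESeq2 68 (0.544%) and 52 (0.416%). Over all genes ST was higher in 6 of 6 mice for 2.09% and lower in 6 of 6 for 2.46%, the fitted difference was above 0 for 45.0% and below 0 for 55.0%, and the groups did not overlap for 0.104%.

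F11r, an adhesion molecule, was among the genes closest to the threshold in culture. It averaged 81.9 ± 67.7 CPM in ST and 32.1 ± 24.6 CPM in MPP (SD, n = 6 each), higher in ST in 6 of 6 mice by 1.34 ± 0.16 (edgeR adjusted p = 0.0608), and is named because its value was seen. Flt3 averaged 94.6 ± 82.8 CPM in ST and 208 ± 174 CPM in MPP in culture, lower in ST in 5 of 6 mice (-1.08 ± 0.29, edgeR adjusted p = 0.614). In single pairs of a mouse and a time, Flt3 was lower in ST in 26 of 30. The 4 exceptions came from young mouse 4 and old mouse 4, the cultures without ligand. These mice also share a column tag and had the smallest culture libraries (6077729 to 6874563 counts). The part of ligand, tag or depth was not tested. Cd34 was lower in 6 of 6 mice (-0.74 ± 0.14), Satb1 in 6 of 6 (-1.33 ± 0.31) and Dntt in 5 of 6 (-3.05 ± 0.83), and none passed (edgeR adjusted p = 0.406, 0.595 and 0.614). Gata2 was higher in ST in 6 of 6 mice and Hlf in 5 of 6 (0.57 ± 0.16 and 1.05 ± 0.26). Procr, by contrast, was higher in ST in 3 and lower in 3 mice, with 139 ± 90.7 CPM in ST and 93.1 ± 33.3 CPM in MPP.

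List medians had the sign of 0 h in culture, except for megakaryocyte (0.17), MHC class II (-0.07) and homing genes (0.08). Of 38 HSC surface genes 13 were higher and 0 lower in ST at an unadjusted p under 0.05 (median 0.62), of 36 MPP and lymphoid genes 1 was higher and 9 lower (median -0.50), and of 54 cell cycle genes 0 were higher and 10 lower, with all 54 below 0 (median -0.51). Ribosome biogenesis genes gave 0 higher and 5 lower of 29 (median -0.12). Erythroid genes gave 6 higher and 0 lower of 19 (median 0.27). By mouse, the cell cycle median in culture was -2.20 in young mouse 3 and -0.71 to -0.07 in young mice 2 and 4 and old mouse 2. It was above 0 in young mouse 1 (0.04) and old mouse 4 (0.15). Young mouse 4 had the opposite sign in the HSC surface (-0.04), MPP and lymphoid (0.03) and ribosome biogenesis (0.20) lists. Immediate early genes, of which 0 reached an unadjusted p under 0.05 at 0 h, gave 9 higher and 0 lower of 15 in culture, with all 15 above 0 and a median of 0.52. Junb, an AP-1 subunit, averaged 866 ± 507 CPM in ST and 560 ± 311 CPM in MPP, and Dusp2, a phosphatase of MAP kinases, 295 ± 221 CPM in ST and 193 ± 127 CPM in MPP (SD, n = 6 each), both higher in ST in 6 of 6 mice (edgeR adjusted p = 0.406 and 0.595). The difference between 0 h and culture was itself not tested.

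Whether the ST to MPP difference itself differs with age was asked next. In edgeR 0 of 10968 genes passed for the term that compares old with young mice (0.0%), with 305 at an unadjusted p under 0.05 (2.78%); limma voom gave 0 and DESeq2 18. The 2 old mice limit this comparison. The genes with the lowest p were Msantd4, Dennd4b, Tube1 and Mocos. Dennd4b, an exchange factor for Rab GTPases, differed by 1.31, 0.17, 0.36 and 0.43 in the 4 young mice and by -1.68 and -3.30 in the old ones, on the log2 scale of CPM + 1. Msantd4, for which no role is given here, differed by -5.10 and -4.18 in old mice 2 and 4, against -0.03 to 1.02 in young mice (edgeR adjusted p = 0.999 for both genes).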

How the data were processed

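Expected counts per gene symbol were deposited by the authors; the submitters' processing notes name RSEM, with no version, and build mm9. They are not scaled to library size, and 89.5% of the values are whole. Repeats of a mouse and cell type were summed and rounded. All columns of the table were mapped to samples, and 6 near-empty libraries under 1000 counts belong to LT of old mouse 2.

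The main model was edgeR 4.0.16 under R 4.3.3, with mouse as a block, filterByExpr, TMM scaling, 2-sided quasi-likelihood test, Benjamini-Hochberg adjustment over all genes tested at 0.05. SE is the log2 difference over the square root of F. Log2 differences by mouse use CPM + 1. The same mouse number is the same animal per the labels. Deviations of ST and MPP from their group means correlated at r = 0.16 to 0.73 within the 6 mice. Between mice r was -0.47 to 0.26 (mean -0.06), so the ranges overlap. P-values measure the spread between 6 animals. Alternatives were limma voom 3.58.1, DESeq2 1.42.0 and its size factors, no filter or 5 CPM in 6 libraries, no block, repeat 1 alone, thinned pairs, subsets of mice, and each mouse left out. The steps were tested on simulated data.

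The comparison and its 23 gene lists were chosen with earlier results of these data known. Named were a fixed set of genes, up to 4 members per list with the lowest p at a mean of at least 5 CPM, and, since fewer than 12 genes passed, the 6 per direction with the lowest p, a mean of at least 10 CPM and 1 sign in 6 mice; likewise 4 genes for age. Members of promoter windows and those called only by limma voom were named after their values were seen. Sequences are RefSeq's, GRCm38.p6; no mm9 coordinates were used. Reads carry no molecular identifiers. Some genes that the rule names are not reported here; they stay in the list counts. Plots used matplotlib 3.10.9 under Python 3.11.15.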

Additional observations from a re-analysis of the deposited data

Results flagged for a closer look

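In 20 of 121 sets of 6 within-mouse values tested, 1 mouse lay far from the other 5, where chance flags about 1 in 20 of independent sets. These sets are not independent, since all come from the same 6 mice and the lists hold some of the same genes. The 2 shares are therefore not a test. Young mouse 3 stood apart in 11 of the 20. Its log2 difference was -4.49 for Cd48 (others -1.53 to -0.23), -4.08 for Mpo (others -1.02 to 0.23), -1.99 for Elane (others -0.35 to 0.63), -2.61 for Gata1 (others -0.40 to 0.74) and -2.86 for Mki67 (others -0.29 to 0.42). It was -0.97 for Paics (others -0.53 to -0.36), -0.17 for Csf2ra (others 0.42 to 0.77) and -0.63 for Cd74 (others 0.18 to 0.66). Its list medians were -2.34 for cell cycle genes (others -0.81 to -0.07), -1.52 for granulocyte-monocyte priming (others -0.12 to 0.45) and -2.56 for mast cell and basophil genes (others -0.57 to 0.55).

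Young mouse 4 stood apart with -1.87 for Flt3 (others -1.20 to -0.91), -1.33 for Glt25d1 (others -0.75 to -0.50), 0.085 for Cd34 (others -0.97 to -0.58), -0.055 for Ltf (others 0.44 to 0.62) and 0.22 for Plek (others -0.92 to -0.58). Young mouse 1 did so with -0.72 for Hlf (others 0.85 to 1.64), -1.59 for Cdk2 (others -0.63 to -0.14) and a median of -0.16 over all genes (others -0.03 to 0.02). Old mouse 4 did so with -2.16 for Notch1 (others -0.66 to -0.25). The part of granule transcripts, depth or input in these values was not tested.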

How the results depend on the processing

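Counts of genes past the threshold depended on the tool. At 0 h DESeq2 gave 42 higher and 56 lower and limma voom 10 and 9, while the other edgeR settings gave 0 and 0, except 1 lower without the filter. Without the replicate block edgeR called 0 and 0, with 325 genes at an unadjusted p under 0.05 against 737 with it; leaving out each mouse gave 0 calls and 520 to 853 such genes. In culture DESeq2 gave 68 and 52, limma voom 92 and 32, no filter 2 and 1, a filter of 5 CPM 2 and 0, stimulated mice alone 1 and 0, and each mouse left out 0 to 2 higher, the 2 coming without old mouse 4; without the replicate block it was 0 and 0. For age DESeq2 gave 18 genes, and without the replicate block 0. The detected gene difference lay between -1348.6 and -900.0 with a mouse left out, was -875 for genes with at least 5 counts, and unpaired, without the replicate block, gave p = 0.039 (exact permutation test). By the same exact permutation test the granule share had p = 0.684 unpaired, against 0.0625 paired.

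Of 95 genes named at 0 h, 86 kept their sign in all 17 alternatives and 9 did not. The cause was not tested. Some of the 95 were picked for a low p, and some of those also for the same sign in every mouse. The alternatives reuse the same libraries, so for such genes a kept sign was favoured by the choice and is not a separate test. Elane was 0.0042 without the replicate block, 0.024 with limma voom, 0.12 in mice labelled LPS+PAM, and -0.47 to 0.040 with a mouse left out. Sfpi1 was -0.036 with repeat 1 alone, -0.18 in mice labelled None, and -0.079 to 0.15 with a mouse left out. Csf1r was 0.15 without the block. Vwf was -1.13 to 0.65 with a mouse left out. Pf4 was -0.031 without the block, -0.78 with limma voom, -0.061 with repeat 1 alone, -0.50 in mice labelled LPS+PAM, and -0.18 to 1.02 with a mouse left out. Gata1 was -0.61 with repeat 1 alone, -0.14 in young mice, -0.80 in mice labelled None, and -0.17 to 0.48 with a mouse left out. Fos was 0.30 in mice labelled None and -0.98 to 0.095 with a mouse left out. Tlr2 was -1.52 with repeat 1 alone, -0.55 in mice labelled LPS+PAM, and -0.28 to 0.92 with a mouse left out. Tlr4 was 0.0013 without the block and 0.10 both in young mice and in mice labelled None.

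The median over all genes, -0.11, was 0.03 with limma voom and without the block. Medians of both HSC lists and of the MPP and lymphoid, cell cycle and ribosome biogenesis lists kept their sign in the alternatives run. So did those of the respiratory chain, erythroid, T and NK cell, and stromal and endothelial lists. The medians of the remaining lists turned in some alternatives. With limma voom and without the block in turn, they were 0.36 and 0.20 for macrophage and dendritic genes (main -0.64), 0.20 and 0.19 for the Myc family, 0.20 and 0.065 for G1 regulators, 0.083 and 0.014 for megakaryocyte, 0.053 and 0.037 for granulocyte-monocyte priming, 0.060 and 0.044 for homing, 0.030 and 0.0051 for mast cell and 0.022 and 0.11 for B cell genes. Homing was also 0.016 with DESeq2 and 0.014 with its size factors, G1 regulators 0.0090 without the filter, and the Myc family 0.068 at 5 CPM. Without young mouse 1 megakaryocyte genes had 0.35; without young mouse 2 TLR genes -0.013; without young mouse 3 mast cell genes 0.15, priming 0.057, the Myc family 0.051 and G1 regulators 0.020; and without old mouse 4 G1 regulators 0.048, TLR genes -0.029 and MHC class II -0.060. In young mice alone MHC class II was -0.16 and B cell 0.0074, and with repeat 1 alone interferon-stimulated genes were -0.14 and immediate early genes -0.025. In mice labelled LPS+PAM the Myc family was 0.15, priming 0.13, G1 regulators 0.067, macrophage and dendritic 0.025, B cell 0.017 and interferon-stimulated genes -0.034; in those labelled None glycolysis was 0.026 and late granule genes -0.0041.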

Other observations

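Limits of the comparison are its 6 animals, of which 2 are old, and shallow or uneven coverage of low genes in ST, where repeats differed most. Genes below the filter, among them Slamf1 and Cdkn1c, could not be compared. The gates are not given, so genes that encode sorted antigens cannot be told apart from genes that follow them.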
